A study of Homo sapiens with 9 samples.

Results

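Antisense long non-coding transcripts are RNAs named for a nearby gene, usually protein-coding, whose opposite DNA strand they are read from. They were taken here as the probe sets with a single gene whose current symbol ends in -AS and a number, at a mean of 7 or more over the 9 arrays on the deposited log2 scale, with the brightest probe set kept for each gene. The rule found 388 transcripts, out of 781 with such a symbol and 19775 genes tested in all. Members were thus chosen by their mean level over all arrays and not by differences between groups. A transcript can still reach this minimum through the group where it is high, as SOCS2-AS1, SOX21-AS1 and NUTM2A-AS1 did. Each symbol names the sense gene, and for 352 members that gene was measured too.

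The series measured total RNA of A549, a human lung adenocarcinoma line, on oligonucleotide arrays with 3 biological replicates in each of 3 groups. Cells of the first group received siRNA against Nrf2 and those of the second a non-targeting NS siRNA, both at 25 nM with Lipofectamine 2000. Mock cells received the transfection reagent without siRNA. All RNA was collected 96 h after transfection, and every group carried the reagent. The labels name a line and an siRNA reagent but no rescue, so loss of the NRF2 protein and other effects of that siRNA cannot be told apart. In bulk RNA, fewer cells with a transcript and less of it per cell cannot be told apart either.

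NRF2, encoded by NFE2L2, is a transcription factor that switches on detoxification and antioxidant genes through the antioxidant response element in their promoters, and A549 cells hold it in a constantly active state because of a mutation in KEAP1, its inhibitor. Antisense transcripts often start close to the start of their sense gene and run the other way, or overlap its body. Some act on the neighbouring gene in cis, others act elsewhere in the cell, and many have no known role.

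Pairs of transcripts that share a start region are shown first, because the same stretch of DNA serves a sense and an antisense gene whose changes can then be set side by side. The windows hold 250 bases before to 50 bases after the antisense start site, are written 5′ to 3′ on the antisense strand, and come from RefSeq on GRCh38.p14. Capitals mark the bases that also lie in the window of the sense gene. The TSKU-AS1 window lies at chr11:76783013-76783312 on the minus strand, shares 207 bases with that of TSKU, and belongs to a pair in which both transcripts were lower after Nrf2 siRNA. The ZBED5-AS1 window lies at chr11:10857967-10858266 on the plus strand, shares 263 bases with ZBED5, and belongs to a pair in which both were higher. The first of the ZEB1-AS1 windows lies at chr10:31319046-31319345 on the minus strand, shares 220 bases with ZEB1, and belongs to a pair that moved in opposite directions against NS siRNA.
TSKU-AS1: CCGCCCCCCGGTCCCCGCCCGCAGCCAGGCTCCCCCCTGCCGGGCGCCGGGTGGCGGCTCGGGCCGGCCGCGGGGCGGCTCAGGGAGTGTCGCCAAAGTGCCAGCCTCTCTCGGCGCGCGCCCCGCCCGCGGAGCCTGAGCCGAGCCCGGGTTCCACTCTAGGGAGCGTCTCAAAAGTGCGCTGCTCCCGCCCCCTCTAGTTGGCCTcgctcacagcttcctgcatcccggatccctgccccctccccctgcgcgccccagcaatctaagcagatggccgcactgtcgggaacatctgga
ZBED5-AS1: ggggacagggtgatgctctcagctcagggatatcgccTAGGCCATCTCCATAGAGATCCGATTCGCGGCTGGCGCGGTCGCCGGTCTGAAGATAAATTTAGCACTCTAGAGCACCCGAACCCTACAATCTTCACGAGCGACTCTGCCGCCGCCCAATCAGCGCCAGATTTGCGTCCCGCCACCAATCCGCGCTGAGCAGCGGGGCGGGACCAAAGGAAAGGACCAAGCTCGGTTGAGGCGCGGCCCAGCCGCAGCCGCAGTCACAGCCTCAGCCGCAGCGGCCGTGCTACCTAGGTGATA
ZEB1-AS1: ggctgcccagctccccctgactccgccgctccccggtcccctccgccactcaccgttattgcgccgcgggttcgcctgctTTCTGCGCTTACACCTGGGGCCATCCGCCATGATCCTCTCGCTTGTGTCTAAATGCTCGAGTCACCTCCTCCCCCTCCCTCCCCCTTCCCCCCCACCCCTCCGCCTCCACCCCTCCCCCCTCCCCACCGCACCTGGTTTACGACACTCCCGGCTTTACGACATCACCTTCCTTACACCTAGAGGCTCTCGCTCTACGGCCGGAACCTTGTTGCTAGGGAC

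The start sites in these pairs were 294 bases apart for TSKU-AS1, 164 for ZBED5-AS1 and 121 for ZEB1-AS1. Windows were also searched on both strands for TGACNNNGC, the core of the antioxidant response element, whose letters can overlap AP-1 sites. A match was held by 17.48% of the 286 members with a window, 50 in number, against 16.06% of all 27305 genes with one. Of the 19 named transcripts that passed against both controls and have a window, 6 held a match. One is the ZEB1-AS1 window printed above, where the match is not marked. All probe sets of RUSC1-AS1 and of DLGAP1-AS2 passed in 1 direction against NS siRNA, but their windows hold no match. The windows of PSMA3-AS1, at chr14:58298088-58298387 on the minus strand, and GABPB1-AS1, at chr15:50353924-50354223 on the plus strand, are shown. Both hold a match, and all of each gene's several probe sets passed in 1 direction against NS siRNA, higher for PSMA3-AS1 and lower for GABPB1-AS1. Capitals here mark the match, whose first base is at position -151 in PSMA3-AS1 and 25 in GABPB1-AS1, counted from the start site. A match is a string of letters and says nothing about binding.
PSMA3-AS1: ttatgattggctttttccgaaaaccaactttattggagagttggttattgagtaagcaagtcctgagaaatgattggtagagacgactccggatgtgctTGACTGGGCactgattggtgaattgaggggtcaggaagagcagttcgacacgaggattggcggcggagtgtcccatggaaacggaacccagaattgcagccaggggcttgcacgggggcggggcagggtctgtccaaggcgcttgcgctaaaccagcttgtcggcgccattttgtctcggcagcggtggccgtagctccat
GABPB1-AS1: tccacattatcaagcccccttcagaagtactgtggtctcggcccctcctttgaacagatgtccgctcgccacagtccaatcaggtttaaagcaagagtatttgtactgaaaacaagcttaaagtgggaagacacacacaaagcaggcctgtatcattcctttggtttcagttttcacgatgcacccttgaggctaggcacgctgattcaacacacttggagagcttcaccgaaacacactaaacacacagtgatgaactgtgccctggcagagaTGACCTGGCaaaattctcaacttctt

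The targeted gene was checked first. NFE2L2 read 10.12, 10.32 and 10.30 in the Nrf2 siRNA arrays, against 12.09, 12.03 and 12.15 in NS siRNA and 12.07, 11.92 and 11.98 in mock. All Nrf2 siRNA arrays thus lay below all others. The NS siRNA and mock arrays overlapped, so this gene cannot check those labels against each other. The median of all probe sets was 7.51 to 7.57 on every array, and the median SD between replicates was 0.07. The epithelial keratins KRT8 and KRT18 averaged 14.29 and 14.94. Markers of cell types that an epithelial line lacks still read 7.22 (PTPRC, leukocytes), 8.43 (CD3E, T cells) and 8.91 (PECAM1, endothelium), and a level of 7 therefore does not by itself show that a transcript is present. Of the 3 leukocyte and 3 endothelial markers, CD14 (8.83 on average after Nrf2 siRNA, against 7.87 after NS siRNA and 7.84 in mock) and CDH5 (5.63 after Nrf2 siRNA, against 5.43 after NS siRNA and 5.40 in mock) were higher after Nrf2 siRNA than in either control, and none of the 4 fibroblast markers passed. The leukocyte markers together averaged 8.12 to 8.23 on the Nrf2 siRNA arrays, against 7.83 to 7.93 on NS siRNA and 7.73 to 7.86 on mock arrays. The 5 epithelial markers averaged 12.28 to 12.43 after Nrf2 siRNA, against 11.91 to 11.94 after NS siRNA and 11.46 to 11.52 in mock, with 3 of them higher against NS siRNA and 4 against mock. The part of these genes in the results was not tested. Of the members, 260 averaged under 8 and 11 averaged 10 or more.

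After Nrf2 siRNA more antisense transcripts were lower than higher. Against NS siRNA, 113 of the 388 members were lower and 26 higher at a limma adjusted p under 0.05, which is 35.8% of them. The background over all genes was 47.6%, with 26.6% lower and 21.0% higher. Among the 15257 genes that also averaged 7 or more it was 55.7%, with 29.9% lower and 25.8% higher. The members' share of lower calls, 29.1%, was thus near the background, while their share of higher calls, 6.70%, was below it, a gap that was not tested. Their median difference was -0.10 on the log2 scale, against -0.05 for all genes, and 2 members passed a 2-fold change.

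The comparison with mock gave fewer calls in the same directions. There 57 members were lower and 25 higher, 21.1% of them, against a background of 33.0%, with 16.7% lower and 16.4% higher. In the genes averaging 7 or more the background was 40.2%, with 20.3% lower and 19.9% higher. The median of the members was -0.05 and that of all genes -0.02. Both comparisons use the same Nrf2 siRNA arrays.

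The share of calls varied with the level of the transcripts. Of members averaging 7 to under 8, 3.85% were higher and 25.0% lower against NS siRNA, beside 9.90% and 22.9% of all genes at that level. Of those averaging 8 to under 9, 10.0% were higher and 37.0% lower, beside 23.6% and 26.2% of all genes. Of the 28 members at 9 or more, 21.4% were higher and 39.3% lower, beside 34.9% and 35.1%. At each level the share of higher calls was smaller among the antisense transcripts and the share of lower calls was larger, which is given as a description and was not tested. Against mock the shares higher and lower were 5.0% and 11.2%, 8.0% and 19%, and 14.3% and 32.1% of the antisense transcripts at these levels, beside 8.54% and 7.92%, 18.5% and 14.9%, and 26.2% and 29.0% of all genes. Against NS siRNA, other non-coding classes, mostly LINC and divergent transcripts, had 30 higher and 126 lower of 470, 6.38% and 26.8%. The 347 distinct sense genes had 106 higher and 95 lower in that comparison, 30.5% and 27.4%. The background was 21.0% and 26.6% of all genes, and 25.8% and 29.9% of those averaging 7 or more.

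**Figure D1:**
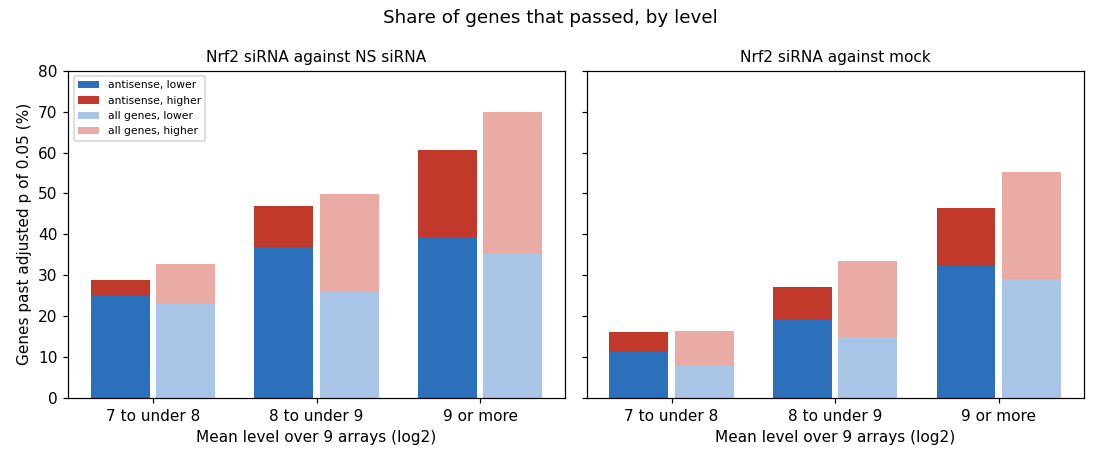
Stacked bars give the percentage of genes that passed an adjusted p of 0.05, lower (blue) below higher (red), for antisense transcripts (dark, left bar) and all genes (pale, right bar) in 3 ranges of mean log2 level, against NS siRNA (left) and mock (right). Against NS siRNA the red part was 3.85%, 10.0% and 21.4% of the antisense transcripts, beside 9.90%, 23.6% and 34.9% of all genes.

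Calls against both controls were fewer. Higher against both were 15 members, 3.87% of them, where the background was 12.6% of all genes and 15.4% of those averaging 7 or more. Lower against both were 46 members, 11.9% of them, where the background was 12.4% and 15.2%. In each of these 61 transcripts the 3 Nrf2 siRNA arrays lay outside the range of the 6 control arrays. Without regard to calls, the Nrf2 siRNA arrays lay above all controls in 21 members, 5.41% of them, beside a background of 14.9% (18.1% of the genes averaging 7 or more), and below them in 73, 18.8% of them, beside 17.0% (20.2%).

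**Figure D2:**
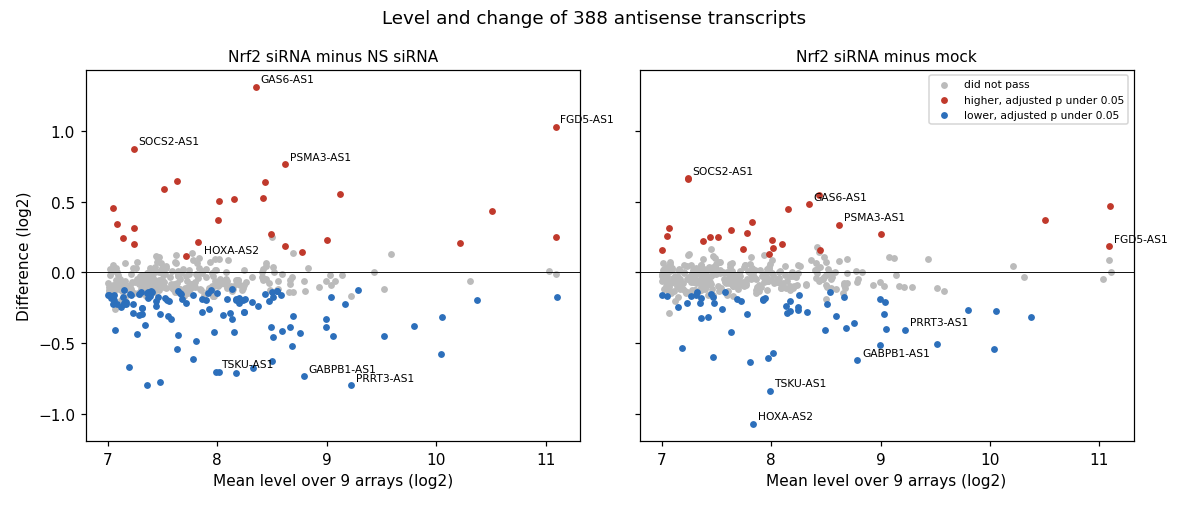
Each point is 1 of the 388 antisense transcripts, with its mean level over 9 arrays (log2) on the x axis and its difference on the y axis, Nrf2 siRNA minus NS siRNA (left) and Nrf2 siRNA minus mock (right). Red and blue points passed an adjusted p of 0.05, and most coloured points lie below 0, 113 of 139 against NS siRNA and 57 of 82 against mock.

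Among the transcripts that rose against both controls, GAS6-AS1 had the greatest difference from NS siRNA. It lies opposite GAS6, which encodes a vitamin K-dependent ligand of the AXL receptor family. GAS6-AS1 read 9.01, 8.96 and 8.87 after Nrf2 siRNA, against 7.63, 7.72 and 7.56 after NS siRNA and 8.58, 8.41 and 8.41 in mock. The 3 groups did not overlap, with Nrf2 siRNA highest and NS siRNA lowest. The difference was 1.31 ± 0.06 (SE) from NS siRNA, 2.49-fold, and 0.48 ± 0.06 from mock, 1.40-fold (limma adjusted p = 3.28e-09 and 5.06e-05). GAS6 itself read 10.18, 10.02 and 10.09 after Nrf2 siRNA, against 10.09, 10.02 and 10.09 after NS siRNA and 10.09, 10.10 and 10.20 in mock, and its groups overlapped. A further GAS6-AS1 probe set differed by 0.12 from NS siRNA and did not pass (limma adjusted p = 0.380, over all probe sets).

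FGD5-AS1 is named for FGD5, an exchange factor for the small GTPase CDC42. It read 11.46, 11.55 and 11.47 after Nrf2 siRNA, against 10.52, 10.41 and 10.47 after NS siRNA and 11.26, 11.30 and 11.36 in mock. NS siRNA lay far below the other groups, and Nrf2 siRNA just above mock. The difference was 1.03 ± 0.05 (SE) from NS siRNA and 0.19 ± 0.05 from mock (limma adjusted p = 3.23e-09 and 0.00903). Its other probe set differed by -0.09 from NS siRNA without passing, and with the mean of both probe sets the difference from mock was 0.07 and no longer passed.

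SOCS2-AS1 rose together with SOCS2, a suppressor of cytokine and growth hormone signalling. SOCS2-AS1 read 7.72, 7.93 and 7.60 after Nrf2 siRNA, against 6.93, 6.89 and 6.81 after NS siRNA and 7.15, 7.12 and 7.0 in mock. SOCS2 read 10.75, 10.92 and 10.74 after Nrf2 siRNA, against 10.09, 10.04 and 9.96 after NS siRNA and 10.12, 10.21 and 10.21 in mock. In both, every Nrf2 siRNA array was above every control. The NS siRNA readings of SOCS2-AS1 all lay under the minimum of 7, which its mean passed with the help of the Nrf2 siRNA arrays. The antisense change was 0.87 ± 0.08 from NS siRNA and 0.66 ± 0.08 from mock, and the sense change 0.77 ± 0.06 and 0.62 ± 0.06 (SE). The antisense change exceeded the sense change by 0.10 against NS siRNA, with a 95% interval of -0.06 to 0.26 that holds 0. The probe set of SOCS2-AS1 carries the _s_ suffix of sets whose probes match several transcripts, as do those of KANSL1-AS1, THAP9-AS1, FAM131B-AS2, DHRS4-AS1 and LAMTOR5-AS1. URB1-AS1 and WAC-AS1 have the related _x_ suffix, and 48 members have either.

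PSMA3-AS1 rose while PSMA3, an alpha subunit of the 20S proteasome core, fell. PSMA3-AS1 read 8.82, 8.98 and 9.16 after Nrf2 siRNA, against 8.33, 8.11 and 8.23 after NS siRNA and 8.60, 8.74 and 8.62 in mock. PSMA3 read 12.68, 12.81 and 12.71 after Nrf2 siRNA, against 13.32, 13.34 and 13.32 after NS siRNA and 13.11, 13.09 and 13.12 in mock. The antisense arrays of the Nrf2 siRNA group were the highest of the 9 and the sense arrays the lowest. Against NS siRNA the antisense change was 0.76 ± 0.08 and the sense change -0.60 ± 0.05 (SE), a difference of 1.36 (95% interval 1.10 to 1.62). Against mock they were 0.34 ± 0.08 and -0.37 ± 0.05. All 3 PSMA3-AS1 probe sets passed as higher against NS siRNA and 2 of them against mock. With the mean of its probe sets, PSMA3 differed from mock by -0.14 and did not pass.

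Others that rose against both controls were PDCD4-AS1, TMEM132D-AS1, NRSN2-AS1, ANXA2R-AS1, KANSL1-AS1, TAPT1-AS1, ZBED5-AS1 and RUSC1-AS1, by 0.32 to 0.65 against NS siRNA. The remaining 3 were EPB41L4A-AS1, THAP9-AS1 and SSTR5-AS1, at 0.22 to 0.25. TMEM132D-AS1 read 8.86, 8.97 and 8.66 after Nrf2 siRNA, against 8.20, 8.22 and 8.15 after NS siRNA and 8.24, 8.28 and 8.33 in mock. Its controls lay close together. It differed by 0.64 ± 0.07 (SE) from NS siRNA and 0.55 ± 0.07 from mock, and its 2 probe sets both passed. PDCD4-AS1 differed by 0.65 ± 0.06 (SE) from NS siRNA and 0.30 ± 0.06 from mock, while PDCD4, a repressor of translation initiation, averaged 4.80 over the 9 arrays and passed in neither comparison. RUSC1-AS1 differed by 0.32 ± 0.07 from NS siRNA and by 0.67 ± 0.07 from mock. Its mock arrays averaged 6.90, under the minimum of 7, and its other probe set changed by only 0.16 against mock, which passed.

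For KANSL1, TAPT1 and ZBED5 the sense gene rose by more than the antisense transcript against NS siRNA, with a 95% interval of the difference clear of 0. KANSL1, a scaffold of the NSL histone acetyltransferase complex, changed by 0.77 ± 0.05 and KANSL1-AS1 by 0.51 ± 0.07 (SE). TAPT1 changed by 1.14 ± 0.06 and TAPT1-AS1 by 0.46 ± 0.07. ZBED5, whose start window is shared with ZBED5-AS1, changed by 0.79 ± 0.05 and ZBED5-AS1 by 0.44 ± 0.04. ZBED5-AS1 read 10.77, 10.82 and 10.74 after Nrf2 siRNA, against 10.36, 10.33 and 10.33 after NS siRNA and 10.43, 10.40 and 10.39 in mock. Against mock ZBED5 and ZBED5-AS1 changed by 0.38 and 0.37, and the difference between them had a 95% interval of -0.08 to 0.06.

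Some of the calls against mock lay near the threshold and were lost when single arrays were left out. TAPT1-AS1 differed from mock by 0.25, and by 0.21 without the third mock array, where it no longer passed. KANSL1-AS1 differed by 0.23 and did not pass without the first Nrf2 siRNA array (0.21), the second (0.18) or the third mock array (0.21). NRSN2-AS1 differed by 0.25 and did not pass without the second (0.21) or the third (0.22) Nrf2 siRNA array, or without the first or second mock array (0.24 in both). The fall of DLGAP1-AS2 against mock, -0.20 (limma adjusted p = 0.0468), did not pass when each of the Nrf2 siRNA and mock arrays was left out in turn, nor without the third NS siRNA array, at -0.19 to -0.21.

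**Figure D3:**
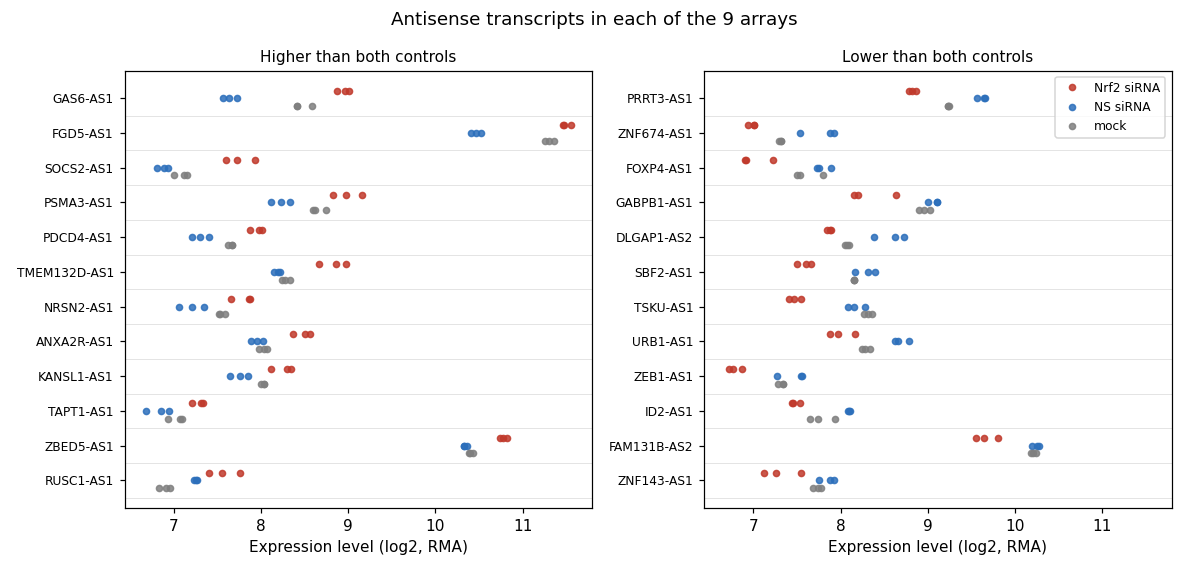
Each row is an antisense transcript and each point an array, on the deposited log2 scale, for the 12 with the greatest rise (left) and fall (right) against NS siRNA among those that passed against both controls. Nrf2 siRNA points (red) lie right of all NS siRNA (blue) and mock (grey) points in the left panel and left of them in the right panel. The distance between blue and grey differs by transcript, from 0.84 in FGD5-AS1 to 0.03 in FAM131B-AS2.

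Of the transcripts that fell against both controls, PRRT3-AS1 fell most against NS siRNA. It read 8.79, 8.86 and 8.82 after Nrf2 siRNA, against 9.66, 9.64 and 9.56 after NS siRNA and 9.23, 9.23 and 9.24 in mock. The groups were well apart, with mock between the siRNA groups. The difference was -0.80 ± 0.04 (SE) from NS siRNA and -0.41 ± 0.04 from mock (limma adjusted p = 1.45e-08 and 1.27e-05). PRRT3 changed by -0.16 ± 0.05 against NS siRNA.

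GABPB1-AS1, named for the GABPB1 subunit of the ETS factor GABP, fell against both controls. Its brightest probe set read 8.16, 8.20 and 8.64 after Nrf2 siRNA, against 9.11, 9.11 and 9.0 after NS siRNA and 8.96, 9.02 and 8.90 in mock. The third Nrf2 siRNA array was closer to the controls than the other two, yet below all of them. The difference was -0.73 ± 0.10 (SE) from NS siRNA and -0.62 ± 0.10 from mock (limma adjusted p = 4.94e-05 and 0.000344). All 6 probe sets passed as lower against NS siRNA, from -0.90 to -0.22, and 4 of them against mock, where the others changed by -0.18 and -0.13. GABPB1 differed by 0.10 ± 0.05 and did not pass.

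TSKU-AS1 fell with TSKU, which encodes the secreted leucine-rich protein tsukushi and shares the start window printed above. TSKU-AS1 read 7.47, 7.55 and 7.41 after Nrf2 siRNA, against 8.16, 8.28 and 8.09 after NS siRNA and 8.31, 8.36 and 8.27 in mock. TSKU read 11.24, 11.30 and 11.37 after Nrf2 siRNA, against 11.95, 11.96 and 11.95 after NS siRNA and 12.67, 12.81 and 12.60 in mock. Both were lowest in the Nrf2 siRNA group, and NS siRNA lay below mock in TSKU. Against NS siRNA they changed by -0.70 ± 0.06 and -0.65 ± 0.06 (SE), with a 95% interval of -0.24 to 0.13 for the difference. Against mock TSKU-AS1 changed by -0.84 ± 0.06 and TSKU by -1.39 ± 0.06.

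ZEB1-AS1 fell while ZEB1, a repressor of epithelial genes such as CDH1, rose against NS siRNA. ZEB1-AS1 read 6.72, 6.77 and 6.87 after Nrf2 siRNA, against 7.56, 7.55 and 7.27 after NS siRNA and 7.34, 7.34 and 7.28 in mock. The Nrf2 siRNA arrays were below all controls, at readings under the level of 7. ZEB1 read 10.10, 10.17 and 10.10 after Nrf2 siRNA, against 9.92, 9.81 and 9.78 after NS siRNA and 10.17, 10.21 and 10.17 in mock. Its Nrf2 siRNA and mock arrays overlapped, and NS siRNA was lowest. ZEB1-AS1 changed by -0.67 ± 0.07 against NS siRNA and -0.53 ± 0.07 against mock, and ZEB1 by 0.29 ± 0.05 and -0.06 ± 0.05 (SE).

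FOXP4-AS1 and FOXP4, a forkhead transcription factor, went opposite ways against both controls. FOXP4-AS1 read 7.23, 6.90 and 6.92 after Nrf2 siRNA, against 7.75, 7.89 and 7.73 after NS siRNA and 7.50, 7.80 and 7.54 in mock. FOXP4 read 9.57, 9.43 and 9.37 after Nrf2 siRNA, against 9.17, 9.17 and 9.18 after NS siRNA and 9.14, 9.25 and 9.21 in mock. Neither gene's Nrf2 siRNA arrays overlapped the controls. The antisense change was -0.78 ± 0.09 and the sense change 0.28 ± 0.06 against NS siRNA, and -0.60 ± 0.09 and 0.25 ± 0.06 against mock (SE). SBF2-AS1 changed by -0.70 ± 0.06 against NS siRNA and -0.57 ± 0.06 against mock, while SBF2, a member of the myotubularin family, changed by 0.47 ± 0.04 and 0.07 ± 0.04. The other SBF2-AS1 probe set changed by -0.11 against NS siRNA and did not pass.

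ID2-AS1 lies beside ID2, an inhibitor of basic helix-loop-helix factors. ID2-AS1 read 7.46, 7.54 and 7.44 after Nrf2 siRNA, against 8.11, 8.08 and 8.10 after NS siRNA and 7.65, 7.74 and 7.94 in mock. The Nrf2 siRNA arrays were below all controls, and mock lay under NS siRNA. ID2 changed by 0.21 ± 0.05 against NS siRNA and -0.22 ± 0.05 against mock (SE). The other ID2-AS1 probe set differed by 0.05 from NS siRNA and did not pass. ZNF674-AS1, DLGAP1-AS2, URB1-AS1, FAM131B-AS2 and ZNF143-AS1 also fell, with changes of -0.79 to -0.54 against NS siRNA. The other 34 that fell against both controls changed by -0.52 to -0.13 against NS siRNA and -0.63 to -0.14 against mock.

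Against NS siRNA and not against mock, 11 members passed as higher and 65 as lower, 2.84% and 16.8% of them. The background for this was 7.35% higher and 13.5% lower of all genes, and 9.06% and 13.8% of those averaging 7 or more. The 3 NS siRNA arrays lay below the other 6 in 9 of the 11 and above them in 33 of the 65, 81.8% and 50.8%, beside 84.0% and 61.3% of all genes with such calls. ARHGAP5-AS1 read 8.13, 8.23 and 8.43 after Nrf2 siRNA, against 8.95, 8.92 and 8.80 after NS siRNA and 8.34, 8.38 and 8.33 in mock. It differed by -0.63 ± 0.07 from NS siRNA and by -0.09 ± 0.07 from mock, and its Nrf2 siRNA and mock arrays overlapped. ARHGAP5 changed by 0.63 ± 0.05 and 0.66 ± 0.05 (SE), so the sense gene passed against both controls. DHRS4-AS1, at 0.55 ± 0.06 from NS siRNA, and TPT1-AS1, at 0.53 ± 0.08, had the greatest rises of this kind. The other DHRS4-AS1 probe set changed by -0.03 and did not pass, and 3 of the 5 TPT1-AS1 probe sets passed as higher.

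LAMTOR5-AS1, beside a subunit of the Ragulator complex, differed by -0.44 ± 0.07 from NS siRNA and -0.02 ± 0.07 from mock. LYRM4-AS1 changed by 0.37 ± 0.06 against NS siRNA, and LYRM4, an assembly factor for iron-sulphur clusters, by -0.32 ± 0.06 (SE). WARS2-AS1, WAC-AS1 and KIAA1614-AS1 were lower, with changes of -0.37, -0.31 and -0.30. SLC25A25-AS1 was higher by 0.27. LOXL1-AS1 was higher by 0.34 (limma adjusted p = 0.0134), and no longer passed without the second (0.29) or the third (0.30) NS siRNA array or the second Nrf2 siRNA array (0.26).

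NS siRNA against mock, which asks what the control siRNA does, gave 35 antisense transcripts higher and 22 lower. That is 14.7% of the members, beside a background of 30.8% of all genes, with 15.6% higher and 15.2% lower. In the genes averaging 7 or more the background was 37.6%, with 18.5% higher and 19.1% lower. HOXA-AS2, within the HOXA cluster of homeobox genes, fell most in NS siRNA. It read 7.36, 7.55 and 7.62 after Nrf2 siRNA and 7.63, 7.30 and 7.30 after NS siRNA, against 8.53, 8.70 and 8.52 in mock. Both siRNA groups overlapped, and all 6 of their arrays were below mock. NS siRNA differed from mock by -1.17 ± 0.09 and Nrf2 siRNA by -1.07 ± 0.09, while Nrf2 siRNA differed from NS siRNA by 0.10 ± 0.09 (SE; limma adjusted p = 9.65e-07, 1.58e-06 and 0.384). Its other probe sets changed by -0.29, which passed, and by -0.08, which did not, in NS siRNA against mock, and HOXA-AS3 changed by -0.01.

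SOX21-AS1 rose most in NS siRNA. It read 6.84, 6.94 and 7.33 after Nrf2 siRNA and 7.53, 7.50 and 7.31 after NS siRNA, against 6.80, 6.73 and 6.64 in mock. The third Nrf2 siRNA array reached the NS siRNA readings. The mock readings all lay under the minimum of 7, which the mean of SOX21-AS1 passed with the help of the NS siRNA arrays. NS siRNA differed from mock by 0.72 ± 0.11 (SE; limma adjusted p = 0.000192). SOX21-AS1 was also lower after Nrf2 siRNA than after NS siRNA, with a difference of -0.41 ± 0.11, and higher than mock, by 0.31 ± 0.11, which fell to 0.16 without the third Nrf2 siRNA array and then did not pass. It also did not pass against mock without the second NS siRNA array (0.31) or when each of the mock arrays was left out in turn, at 0.27 to 0.35. NUTM2A-AS1, at -0.16 and 0.16, was the other member with calls of opposite sign. Its mean lay just above the minimum of 7, which it also passed with the help of the NS siRNA arrays. Both of its changes were weaker under some of the alternatives tried.

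FGD5-AS1 (-0.84 ± 0.05), GAS6-AS1 (-0.83 ± 0.06), DHRS4-AS1 (-0.45 ± 0.06) and GTF2I-AS1 (-0.44 ± 0.10) followed HOXA-AS2 among the falls in NS siRNA against mock (SE). The rises after SOX21-AS1 were ARHGAP5-AS1, DLGAP1-AS2, ZNF674-AS1 and LAMTOR5-AS1, by 0.43 to 0.54. Of these 8 transcripts, all but GTF2I-AS1 are also named above for their difference between Nrf2 siRNA and NS siRNA, and these comparisons share the NS siRNA arrays.

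The sense genes were then taken over all 352 pairs. Of them, 230 had overlapping spans, 101 had start sites within 1000 bases, 18 did not overlap and 3 could not be placed. Against NS siRNA 72 pairs had both partners called, with 28 both lower, 11 both higher, 28 with the antisense lower and the sense higher, and 5 the other way round. In 57 pairs the antisense transcript was called and the sense gene was not. Across the pairs, which share the same arrays, the changes had a Pearson's r of 0.08 and a Spearman rank correlation of 0.03, given as a description. The antisense change was below the sense change with a 95% interval clear of 0 in 128 pairs and above it in 57.

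The arrangement of the pairs was set beside their calls. Of the 101 antisense transcripts that start close to their sense gene, 42 were lower and 5 higher against NS siRNA, 41.6% and 4.95%. Of the 230 with overlapping spans, 57 were lower and 16 higher, 24.8% and 6.96%. The background was 29.9% lower and 25.8% higher of the genes averaging 7 or more. Their median changes were -0.13 and -0.10. Of the 22 close pairs with both partners called, 12 had the antisense lower and the sense higher, 8 were both lower, 2 both higher, and none had the antisense higher and the sense lower. Whether these arrangements differ was not tested. Of the 46 transcripts that fell against both controls, 22 start close to their sense gene, and of the 15 that rose, 4 do. Of all 352 members with a measured sense gene, 101 do, and these shares were not tested against each other.

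**Figure D4:**
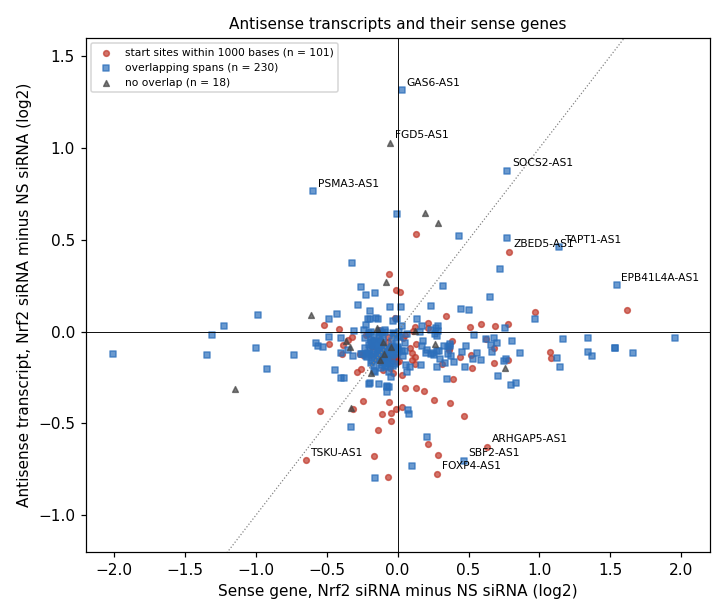
Each point is a pair, with the change of the sense gene on the x axis and that of the antisense transcript on the y axis, both Nrf2 siRNA minus NS siRNA (log2), by arrangement. The dotted line marks equal change. The points spread along both axes with r = 0.08, the sense genes over -2.01 to 1.96 and the antisense transcripts over -0.80 to 1.31.

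The probe sets with the highest readings were those of HLA-F-AS1, EPB41L4A-AS1, FGD5-AS1, OIP5-AS1 and MAPKAPK5-AS1, at 11.03 to 11.11 on average, although readings of different probe sets also reflect how well each binds. OIP5-AS1 read 11.05, 11.19 and 11.10 after Nrf2 siRNA, against 11.17, 11.12 and 11.09 after NS siRNA and 10.99, 11.04 and 11.05 in mock. Its Nrf2 siRNA arrays overlapped those of NS siRNA and met mock at 11.05, while all NS siRNA arrays lay above mock. This probe set passed in no comparison. Its other probe sets differed from it, as one changed by -0.44 against NS siRNA and another by 0.37 against mock, and both passed, as they did in NS siRNA against mock at 0.31 and 0.33. The brightest MAPKAPK5-AS1 probe set also passed in none, while of its others one passed at -0.21 against NS siRNA and one at -0.16 in NS siRNA against mock. HLA-F-AS1 differed by -0.17 from NS siRNA (limma adjusted p = 0.0422) and by 0.00 from mock. The first of these did not pass without the first NS siRNA array (-0.12), the third (-0.17), the first Nrf2 siRNA array (-0.13), the third (-0.18) or the first mock array (-0.17).

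EPB41L4A-AS1 read 11.37, 11.41 and 11.23 after Nrf2 siRNA, against 11.16, 11.09 and 11.00 after NS siRNA and 10.82, 10.90 and 10.87 in mock. The 3 groups were in that order without overlap. It changed by 0.25 ± 0.06 against NS siRNA and 0.47 ± 0.06 against mock, and EPB41L4A, a band 4.1 family gene, by 1.55 ± 0.05 and 1.51 ± 0.05 (SE). With the mean of its probe sets EPB41L4A-AS1 differed from NS siRNA by 0.14 and did not pass.

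Several antisense members share a sense name in 8 cases. DLGAP1 has 3 of them, which changed by -0.71 (DLGAP1-AS2), -0.22 (DLGAP1-AS6) and -0.06 (DLGAP1-AS1) against NS siRNA, and the last did not pass. ZNF503-AS1 and ZNF503-AS2 changed by -0.15 and 0.04, the first passing and the second not.

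MSC-AS1, the transcript named as a marker of the class, averaged 6.16 and so lay outside the rule. It read 5.92, 5.93 and 5.95 after Nrf2 siRNA, against 5.45, 5.26 and 5.23 after NS siRNA and 7.20, 7.24 and 7.23 in mock. The groups were far apart, with mock highest and NS siRNA lowest. The difference was 0.62 ± 0.06 from NS siRNA, -1.29 ± 0.06 from mock, and -1.91 ± 0.06 in NS siRNA against mock (SE). MSC, a basic helix-loop-helix repressor, read 7.41, 7.55 and 7.31 after Nrf2 siRNA, against 8.40, 8.31 and 8.26 after NS siRNA and 8.20, 8.39 and 8.15 in mock.

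Just inside the minimum were NUTM2A-AS1 and NR2F2-AS1, both at 7.004, and CFAP65-AS1 at 7.007. Just outside were ZBED3-AS1 and LY6S-AS1, both at 6.995, and LDLRAD4-AS1 at 6.991. Of the members, 26 had a group mean under 7. The 393 antisense transcripts under the minimum had 65 lower and 14 higher calls against NS siRNA, 16.5% and 3.56% of them, beside a background of 15.5% and 4.89% of all genes under 7.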

How the data were processed

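Total RNA of 9 A549 cultures was read on oligonucleotide arrays with 54675 probe sets. The authors made the deposited log2 values with RMA, per the submitters' processing notes, and the RMA version is not given in the sources used here. Replicates are labelled as biological, with nothing more on their origin, so p-values measure the spread between these samples, and 3 arrays a group limit the precision. In mock, 12.9% of members had identical values on 2 or more arrays, beside 11.0% of all probe sets, which narrows their SD. The shares were 7.22% of members and 7.23% of all probe sets in Nrf2 siRNA, and 6.19% and 7.59% in NS siRNA.

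Of 41091 probe sets with a single gene, 41037 matched RefSeq (GRCh38.p14), giving 19775 genes by brightest probe set. Probe sets without a gene name (11721), with several genes (1801, 22 with an antisense symbol) and controls (62) were left out. Probe sequences were not used, so the strand read rests on annotation. Groups were compared with limma 3.58.1 (R 4.3.3) in a model of 3 group means, Benjamini-Hochberg adjusted over all genes, and tested on simulated data. Sense and antisense changes were compared with 95% intervals from 6 residual degrees of freedom. Tables and figures used python 3.11.15, pandas 2.3.3 and matplotlib 3.10.9.

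Transcripts named were the 12 each way with the greatest change against NS siRNA among those called against both controls. To these came 5 each way against NS siRNA alone and 5 each way in NS siRNA against mock. The 5 brightest and 3 on each side of the minimum were also named, and the sense genes of all of these. THAP9-AS1, SSTR5-AS1, DLGAP1-AS1, DLGAP1-AS6, HOXA-AS3, ZNF503-AS1 and ZNF503-AS2 were added after their values were seen. Members and lists were chosen with earlier results of these data known. Alternatives changed scaling, filters, probe set choice, variance model, samples and threshold. Replicate numbers were not used as pairs, since the labels do not say that equal numbers mark a shared day or batch. Deviations of same-numbered arrays correlated at -0.21 to 0.23, and those of differently numbered arrays at -0.34 to 0.20. With 3 arrays a group these values do not settle whether equal numbers share a batch.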

Additional observations from a re-analysis of the deposited data

How the results depend on the processing

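Among antisense transcripts, lower calls outnumbered higher ones against both controls, and higher ones outnumbered lower ones in NS siRNA against mock, under each alternative tried. The last margin was narrow with equal array medians, at 27 higher and 25 lower, 51.9% higher, where the deposited values gave 35 and 22, 61.4%, and the cause was not tested. The same scaling gave 27 higher and 84 lower against NS siRNA, where the deposited values gave 26 and 113. Among all genes it gave 4340 and 4372, where the deposited values gave 4156 and 5266. With members at 8 or more, 16 were higher and 48 lower in Nrf2 siRNA against NS siRNA, 12 and 28 against mock, and 15 and 11 in NS siRNA against mock, from fewer members. At an adjusted p under 0.01, 60 were lower against NS siRNA, 13 higher against mock and 20 higher in NS siRNA against mock. The unmoderated test left 16 higher against mock. For the other non-coding classes it left 76 lower against NS siRNA, and a p under 0.01 left 59 lower against NS siRNA and 12 higher in NS siRNA against mock. With equal array medians these classes had 19 higher and 31 lower in NS siRNA against mock, 38.0% higher, where the deposited values gave 39 and 27, 59.1%, and the cause was not tested.

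Leaving out each array in turn, antisense transcripts numbered 22 to 28 higher and 81 to 123 lower against NS siRNA, 16 to 25 and 42 to 61 against mock, and 28 to 37 and 17 to 23 in NS siRNA against mock. The other classes gave 28 to 32 and 83 to 127, 24 to 27 and 45 to 65, and 24 to 41 and 24 to 28. Pairs with an interval above 0 and below 0 numbered 47 to 54 and 122 to 131 against NS siRNA, 40 to 55 and 80 to 99 against mock, and 75 to 90 and 41 to 51 in NS siRNA against mock.

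With the replicate number as a block, 28 antisense transcripts were higher and 120 lower against NS siRNA, 25 and 61 against mock, and 40 and 22 in NS siRNA against mock. Since the labels do not say that the numbers pair the samples, this is a check and no result.

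Probe set choice turned some signs. With the most variable probe set, HLA-F-AS1 changed by 0.002 against NS siRNA, MAPKAPK5-AS1 by -0.21, FGD5 by 0.32 and GABPB1 by -0.23. That HLA-F-AS1 probe set averaged only 4.37 over the arrays, and its change, with an SE of 0.08, did not pass. FGD5 changed by 0.41 against mock, and by 0.19 with the mean of its probe sets. LDLRAD4 changed by -0.73 and -0.29 in NS siRNA against mock under these choices. Readings close to those of absent cell types' markers limit what low members show.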
